A study of Mus musculus with 8 samples.

Results

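Pim1, Pim2 and Pim3, the 3 genes of the mouse Pim kinase family, were followed through messenger RNA profiles of naive CD4 and CD8 T cells with and without a T cell deletion of Trappc1. They are 3 of the 23337 gene symbols in the expression tables, and all 3 were among the 11786 genes that averaged 1 TPM or more (transcript abundance corrected for length and scaled to a fixed total). The genes were picked by symbol, with their differences between knockout (KO) and wild type (WT) cells already known. Those differences are therefore given below as descriptions, with an interval and without a p-value, and tests are kept for comparisons that did not guide the choice. Trappc1 encodes a subunit of the TRAPP complexes, the tethering machinery of vesicle traffic to and through the Golgi.

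Cells sorted as CD62L-positive and CD44-low came from the mLNs and spleens of mice aged 4 weeks. The 4 groups of 2 libraries were WT and KO cells of the CD4 lineage (CD4 WT, CD4 KO) and of the CD8 lineage (CD8 WT, CD8 KO), where KO stands for the CD4-cre Trappc1 conditional knockout. CD4-cre is switched on in thymocytes that carry both co-receptors, so it acts in both lineages. The sources used here do not give whether the WT mice carried Cre, which part of Trappc1 was removed, or whether the replicates are separate mice. The p-values therefore measure only the spread between these libraries. In such bulk samples, fewer cells of a type and less RNA per cell cannot be told apart.

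Pim kinases are serine/threonine kinases that are active as soon as they are made, so that their activity follows the amount of protein in the cell. Their transcription is raised by cytokine receptors through JAK and STAT proteins and by NF-kB, and in lymphocytes they support survival and growth in parallel with AKT. Known substrates include the death-promoting protein Bad and the cell cycle inhibitors p27 (Cdkn1b) and p21 (Cdkn1a).

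The files place Pim1 on chromosome 17 (29491045 to 29495459), Pim2 on chromosome X (7878306 to 7883432) and Pim3 on chromosome 15 (88862194 to 88865726), all on the plus strand of mm10. Each has 6 exons in the GENCODE M21 annotation of the same build, with 942, 1113 and 981 coding bases in Pim1, Pim2 and Pim3. Pim1 and Pim3 are the closest pair, identical at 74.3% of their aligned coding bases, against 63.3% for Pim1 and Pim2 and 64.2% for Pim2 and Pim3. The longest run of coding bases shared by any pair lies in Pim1 and Pim3 and encodes part of the catalytic loop of the kinase. It is shown because it bounds how much sequence reads of these genes have in common.
Pim1 and Pim3 shared coding run: caccgcgacatcaaggacgagaac
This run of 24 bases begins at coding base 493 of Pim1 and 502 of Pim3. The longest runs in the other pairs were 17 bases each. The sources used here do not give how reads that match several genes were treated.

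The 250 bases before the RefSeq start sites of Pim2 and Pim3 (GRCm38.p6, the same build) are shown because these genes had the most unlike patterns across the libraries. The Pim2 window is chrX:7878056-7878305 and the Pim3 window is chr15:88861944-88862193, both on the plus strand and 5′ to 3′. Capitals mark the octamer ATGCAAAT, the CCAAT box and the kB motif on either strand, and CCAAT reads ATTGG on the minus strand.
Pim2 upstream: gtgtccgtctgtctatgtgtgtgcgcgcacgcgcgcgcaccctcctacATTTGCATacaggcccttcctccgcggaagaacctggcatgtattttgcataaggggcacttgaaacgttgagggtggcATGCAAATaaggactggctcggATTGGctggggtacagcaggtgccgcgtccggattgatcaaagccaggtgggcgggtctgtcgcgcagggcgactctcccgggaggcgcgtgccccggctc
Pim3 upstream: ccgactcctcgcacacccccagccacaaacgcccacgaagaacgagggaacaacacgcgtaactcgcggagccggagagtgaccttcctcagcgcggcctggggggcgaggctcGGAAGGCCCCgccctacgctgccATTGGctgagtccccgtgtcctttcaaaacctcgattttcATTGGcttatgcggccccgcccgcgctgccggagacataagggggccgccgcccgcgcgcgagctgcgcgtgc
The Pim2 window held the octamer 2 times, at -202 to -195 on the minus strand and at -123 to -116 on the plus strand, counted back from the start site. Of 32851 RefSeq mouse promoter windows of the same length, 1.6% held an octamer and 0.0974% held at least 2. Pim2 also held 1 CCAAT box (-101 to -97), a motif found in 33.8% of windows. Pim3 held 2 CCAAT boxes (-113 to -109 and -73 to -69) and 1 kB match (-136 to -127), and 7.25% of windows held a kB match. The STAT motif TTCNNNGAA, present in 7.02% of windows, was in none of the windows of the 3 genes. The GC box GGGCGG, left in lower case, occurred 1 time in Pim2 and 3 times in Pim3, where the first of them overlaps the kB match. It occurred 7 times in Pim1, all before the RefSeq start at 29490785. At least 1 was in 32.7% of windows. Octamer, CCAAT and GC box were added to the search after the sequences had been seen, and a match describes letters, not binding. Pim1 is not shown because its start in the files (29491045) matches neither RefSeq start (29490785 and 29493085).

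Aligned sequence, estimated from coverage, was 3.03 to 4.01 gigabases per library. Cd8b1, which marks the CD8 lineage, was at 14.1 to 44.2 TPM in the CD4 and 657.9 to 2192 TPM in the CD8 libraries. Trappc1 stood at 78.7 and 55.0 TPM in WT CD4 cells, 30.5 and 32.8 in KO CD4 cells, 81.2 and 40.3 in WT CD8 cells, and 56.9 and 45.6 in KO CD8 cells. The library labelled CD8 WT replicate 2 thus had less Trappc1 than either CD8 KO library, which goes against its label, although the tables give 1 value per gene and cannot check the deleted part. That library also stood apart in its makeup, with summed erythroid markers at 91700 TPM against 59.3 to 2204 in the other 7, summed myeloid markers at 29780 against 84.3 to 2241, and summed T cell markers at 1968 against 2633 to 5614. The log2 differences, ratios of means and correlations of the Pim genes that rest on it are given with and without it, and the span-adjusted values below are given with it only. The fit pools the spread over all groups, so leaving it out also narrows the intervals of comparisons in which it has no part.

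Pim2 was the most abundant member in 7 of the 8 libraries and the one that stood higher in the knockout of both lineages, about 4-fold in each. In CD4 cells it was at 115.8 and 131.2 TPM in WT and at 520.3 and 590.1 TPM in KO. In CD8 cells it was at 110.2 and 74.98 TPM in WT and at 378.1 and 398.4 TPM in KO. All 4 KO libraries lay above all 4 WT libraries, with 378.1 TPM as the lowest KO value and 131.2 TPM as the highest WT value.

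**Figure D1:**
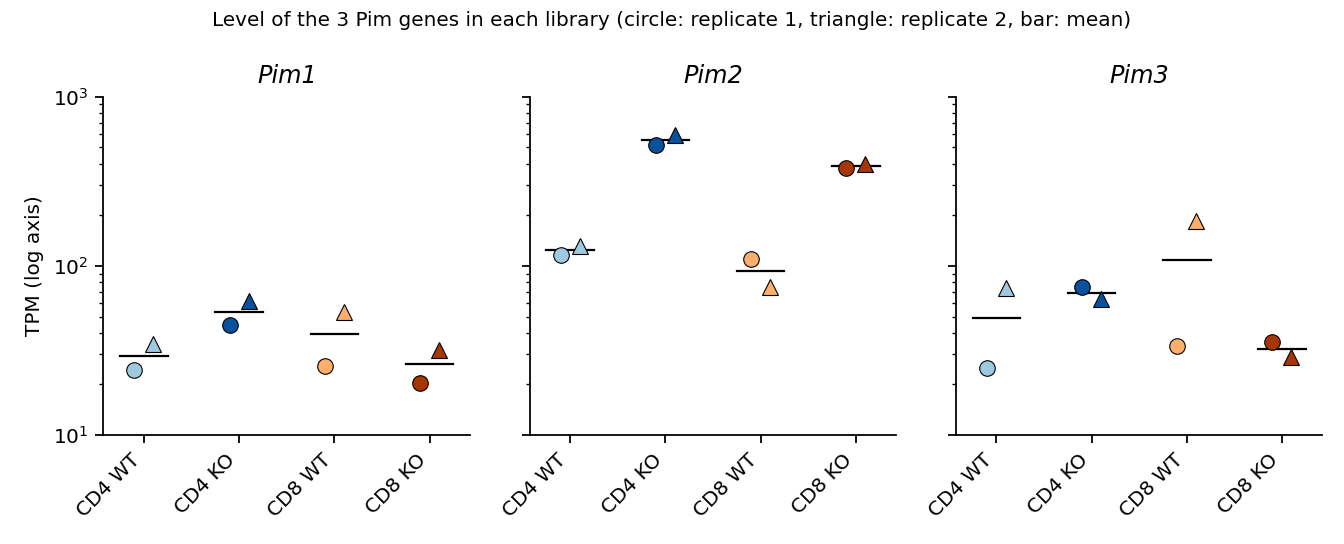
TPM of Pim1, Pim2 and Pim3 (log axis) in the 4 groups, with a circle for replicate 1, a triangle for replicate 2 and a bar at the mean. Pim2 lies between 74.98 and 131.2 TPM in the WT libraries and between 378.1 and 590.1 TPM in the KO libraries, whereas Pim1 and Pim3 show no such separation over both lineages.

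Group means of Pim2 were 123.5 ± 10.9 TPM in CD4 WT and 555.2 ± 49.4 TPM in CD4 KO (SD, n = 2), a ratio of 4.50 with single-library ratios of 3.97 to 5.10. In CD8 cells the means were 92.6 ± 24.9 and 388.2 ± 14.4 TPM (SD, n = 2), a ratio of 4.19 with single-library ratios of 3.43 to 5.31 (3.52 against CD8 WT replicate 1 alone). On the log2(TPM + 1) scale the KO minus WT difference of Pim2 was 2.16 ± 0.29 (SE, 95% interval 1.51 to 2.81) in CD4 and 2.08 ± 0.29 (1.43 to 2.73) in CD8 cells. Among the 11786 genes tested these ranked 184th and 113th, counted from the largest rise in KO, with falls not counted by size. With the library labelled CD8 WT replicate 2 left out, which was the lowest of all for Pim2, the CD8 difference was 1.81 (1.31 to 2.30) and the CD4 difference was the same with an interval of 1.75 to 2.57. Pim2 was well covered, at 120.2 to 759.0 reads per base, and stood between the 90.44th and the 98.89th percentile of all symbols in each library.

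Pim1, the member best known as an early target of cytokine signalling, was less abundant and did not share the pattern of Pim2. It stood at 24.4 and 34.6 TPM in WT CD4 cells, 44.9 and 61.7 in KO CD4 cells, 25.6 and 53.4 in WT CD8 cells, and 20.4 and 32.0 in KO CD8 cells. Both CD4 KO libraries were above both CD4 WT libraries, while the CD8 groups overlapped. The CD4 ratio of means was 1.81 (single-library ratios 1.30 to 2.53) and the log2 difference was 0.84 ± 0.45 (SE, interval -0.18 to 1.85, or 0.03 to 1.64 without the library that stands apart). In CD8 cells the log2 difference was -0.52 ± 0.45 (-1.53 to 0.50), and with the library labelled CD8 WT replicate 2 left out it was -0.0012 (-0.99 to 0.98).

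Pim3 differed widely between the replicates of each WT group. It was at 24.8 and 73.7 TPM in WT CD4 cells, 74.9 and 63.3 in KO CD4 cells, 33.7 and 183.2 in WT CD8 cells, and 35.3 and 29.1 in KO CD8 cells. The value of 183.2 in the library labelled CD8 WT replicate 2 was the highest of the 8, and KO and WT overlapped in both lineages. Its log2 difference was 0.67 ± 0.72 (SE, interval -0.94 to 2.28) in CD4 and -1.27 ± 0.72 (-2.89 to 0.34) in CD8 cells. With the library labelled CD8 WT replicate 2 left out the CD8 difference was -0.07 (-1.35 to 1.21). The CD4 interval was then -0.38 to 1.72. The CD4 difference of Pim3 also turned on single CD4 libraries, at -0.10 without CD4 WT replicate 1 and 1.44 without CD4 WT replicate 2.

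Of the 3 genes, 2 in CD4 cells (Pim1 and Pim2) and 1 in CD8 cells (Pim2) had both KO libraries above both WT libraries. Over all genes tested this was so for 21.7% in CD4 and 23.0% in CD8 cells, and since these contrasts guided the choice of genes, nothing is read from the counts. By limma, 0.713% of all genes passed an adjusted p of 0.05 in CD4 and 0.297% in CD8 cells.

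**Figure D2:**
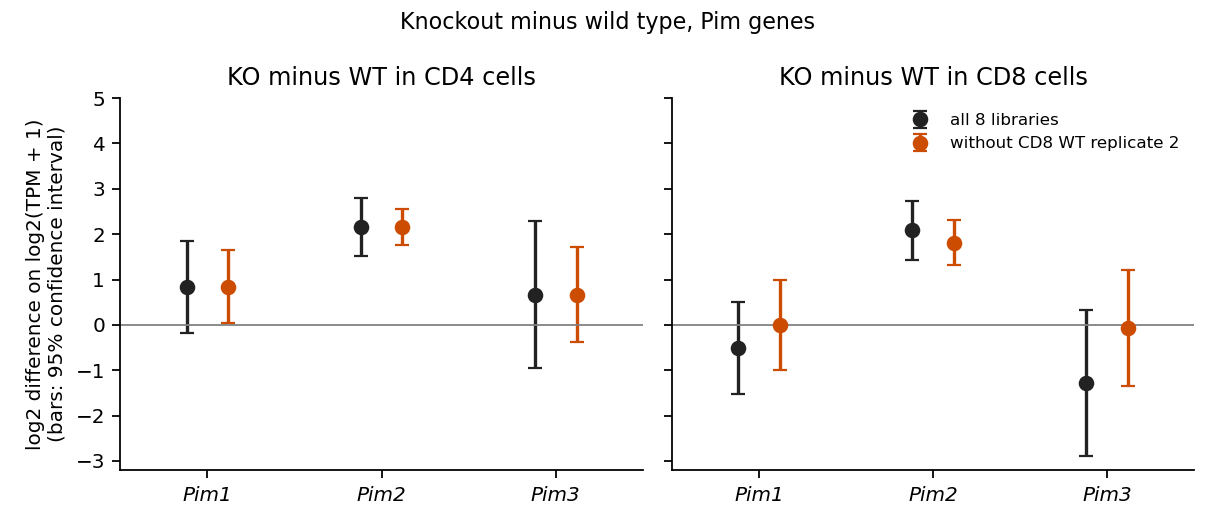
KO minus WT difference on the log2(TPM + 1) scale for each Pim gene in CD4 (left) and CD8 cells (right), with 95% confidence intervals, for all 8 libraries (black) and with the library labelled CD8 WT replicate 2 left out (orange). The Pim2 differences are 2.16 in CD4 and 2.08 (1.81 without that library) in CD8 cells, and the CD8 differences of Pim1 and Pim3 are -0.0012 and -0.07 without it.

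Because TPM is corrected for length, the levels of the 3 genes can be added. Their sum was 165.0 and 239.4 TPM in WT CD4 cells, 640.1 and 715.0 in KO CD4 cells, 169.4 and 311.6 in WT CD8 cells, and 433.7 and 459.4 in KO CD8 cells. Both KO groups lay wholly above the WT group of their lineage, by ratios of means of 3.35 and 1.86 (2.64 for CD8 against CD8 WT replicate 1 alone). Pim2 made up 70.2% and 54.8% of the sum in WT CD4 cells, 81.3% and 82.5% in KO CD4 cells, 65.0% and 24.1% in WT CD8 cells, and 87.2% and 86.7% in KO CD8 cells. The mean share was thus 19.43 percentage points higher in CD4 KO and 42.39 points higher in CD8 KO. The first was 11.73 points without CD4 WT replicate 2, and the second was 21.9 points with the library labelled CD8 WT replicate 2 left out, in which Pim3 alone took 58.8%. Pim1 and Pim3 together came to 49.2 and 108.3 TPM in CD4 WT and 119.8 and 124.9 in CD4 KO. In CD8 cells they came to 59.2 and 236.7 TPM in WT and to 55.7 and 61.0 in KO, so apart from 1 WT library the CD8 sums of these genes lay within a few TPM of each other.

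**Figure D3:**
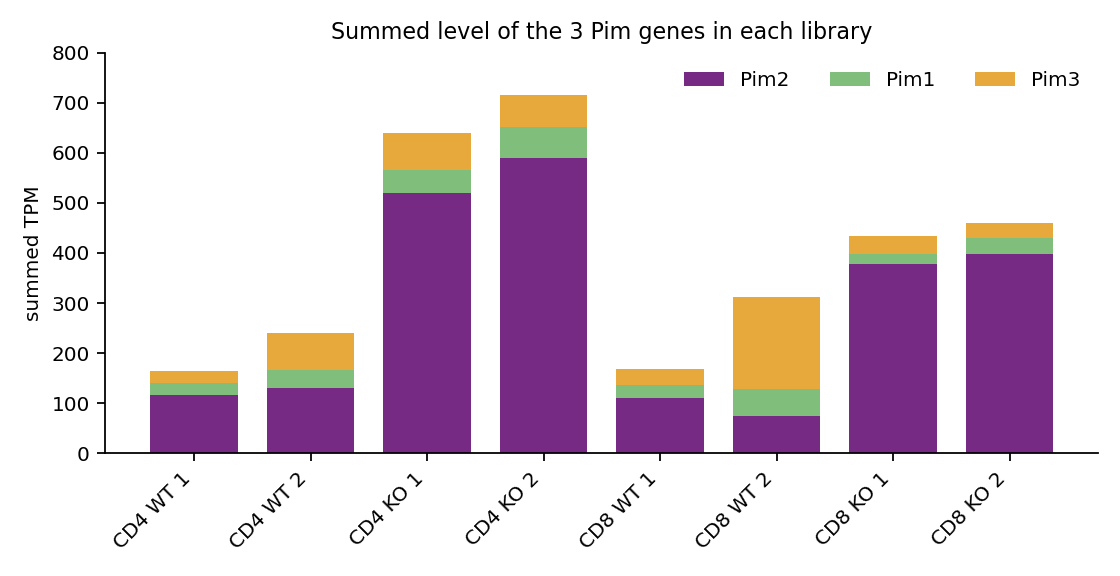
Stacked TPM of Pim2 (bottom), Pim1 and Pim3 (top) in each of the 8 libraries. The KO bars (433.7 to 715.0 TPM) are taller than the WT bars (165.0 to 311.6 TPM) through the Pim2 segment, and the Pim3 segment is largest in the library labelled CD8 WT replicate 2.

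The lineages were compared next, within one genotype, a contrast that did not guide the choice of genes. In WT cells 0 of the 3 passed between CD8 and CD4 by limma, with 0.195% of all genes passing. At an unadjusted p under 0.05 there were also 0 of the 3, against 8.67% of all genes. The CD8 minus CD4 difference was 0.34 for Pim1 (interval -0.67 to 1.36, adjusted p = 0.796), -0.43 for Pim2 (-1.08 to 0.21, adjusted p = 0.647) and 0.86 for Pim3 (-0.75 to 2.48, adjusted p = 0.689). With the library labelled CD8 WT replicate 2 left out the values were -0.18, -0.16 and -0.34, so the sign for Pim1 and Pim3 rested on it. Pim2 alone did not overlap between the WT lineages, lower in CD8, as 24.8% of all genes were.

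In KO cells, where the doubtful library has no part in the group means, all 3 Pim genes were lower in CD8 than in CD4 cells without overlap. The ratios of CD8 to CD4 means were 0.491 for Pim1, 0.699 for Pim2 and 0.466 for Pim3, and 25.8% of all genes were also lower without overlap. By limma 0 of the 3 passed, against 0.280% of all genes, while 9.52% of all genes had an unadjusted p under 0.05. The log2 difference was -1.08 for Pim3 (interval -2.69 to 0.53, adjusted p = 0.691) and -0.51 for Pim2 (-1.16 to 0.14, adjusted p = 0.629). For Pim1 it was -1.01 (interval from -2.03 to just under 0), with an unadjusted p that rounds to the threshold of 0.05 and an adjusted p of 0.525. With the library labelled CD8 WT replicate 2 left out, which narrows the pooled spread, the intervals were -1.82 to -0.21 for Pim1, -0.92 to -0.11 for Pim2 and -2.13 to -0.03 for Pim3. The unadjusted p-values were then 0.0194, 0.0192 and 0.0446, and by limma none passed after adjustment (0.193, 0.193 and 0.278).

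Whether the knockout difference itself was unlike between lineages was tested as an interaction, CD8 difference minus CD4 difference. For Pim2 it was -0.08 (interval -0.996 to 0.84, adjusted p = 0.968), so a gap of up to about 1 log2 unit in Pim2 remains within the interval. For Pim1 it was -1.36 (-2.79 to 0.08) and for Pim3 -1.94 (-4.22 to 0.34), each with an adjusted p of 0.701. By limma 0 of all 11786 genes passed (0.00%), while 819 (6.95%) had an unadjusted p under 0.05. With the library labelled CD8 WT replicate 2 left out the interactions were -0.35, -0.84 and -0.74 for Pim2, Pim1 and Pim3, with adjusted p of 0.852, 0.814 and 0.884.

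By mean TPM, Pim2 ranked CD4 KO, CD8 KO, CD4 WT, CD8 WT, and no neighbours in that order overlapped. The order for Pim1 was CD4 KO, CD8 WT, CD4 WT, CD8 KO, and each neighbouring pair overlapped. For Pim3 it was CD8 WT, CD4 KO, CD4 WT, CD8 KO, again with overlap at every step. Across the 8 libraries Pim1 and Pim3 had a Pearson r of 0.759, Pim1 and Pim2 of 0.192, and Pim2 and Pim3 of -0.215, on log2(TPM + 1). Over the 7 libraries other than the one that stands apart they were 0.727, 0.566 and 0.358. These coefficients describe points that share groups.

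Pim1 and Pim3 were set beside the immediate early genes, a list of 16 transcripts such as Fos, Jun and Egr1 that cells induce within minutes of a stimulus or of handling. The list was drawn up after these data had been seen. Its summed level was 2265 and 2307 TPM in WT CD4 cells, 4663 and 4731 in KO CD4 cells, 2235 and 10150 in WT CD8 cells, and 1882 and 2221 in KO CD8 cells, with 0 to 2 of the 16 listed at 0 in a library (Fosb, Egr3 or Ier3). The highest sum and the highest Pim3 thus fell in the same library, and both CD4 KO libraries were above CD4 WT for the sum and for Pim1. The means of 14 of the 16 were higher in CD4 KO, where 41.7% of all genes were higher, and 0 of 16 were higher in CD8 KO, where 52.4% of all genes were. The CD8 count rests on the library labelled CD8 WT replicate 2: against CD8 WT replicate 1 alone, 10 of 16 were higher in CD8 KO, as were 47.7% of all genes. Pim2 was also higher in CD4 KO. It was lowest in the library labelled CD8 WT replicate 2, where the immediate early sum was highest and the T cell marker sum lowest. In CD8 KO, Pim2 was at 378.1 and 398.4 TPM, and the immediate early sums were the lowest of all, narrowly (2221 against 2235 TPM). Btg2 alone gave 753.3 and 761.5 TPM of these CD8 KO sums. Single members went both ways against CD8 WT replicate 1. Jun (96.0 and 109.2 against 31.1 TPM) and Junb (386.3 and 633.8 against 210.7) were higher in CD8 KO. Ier2 was lower there (88.06 and 139.9 against 471.5 TPM). The part of this signal in the Pim1, Pim2 and Pim3 values was not tested.

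**Figure D4:**
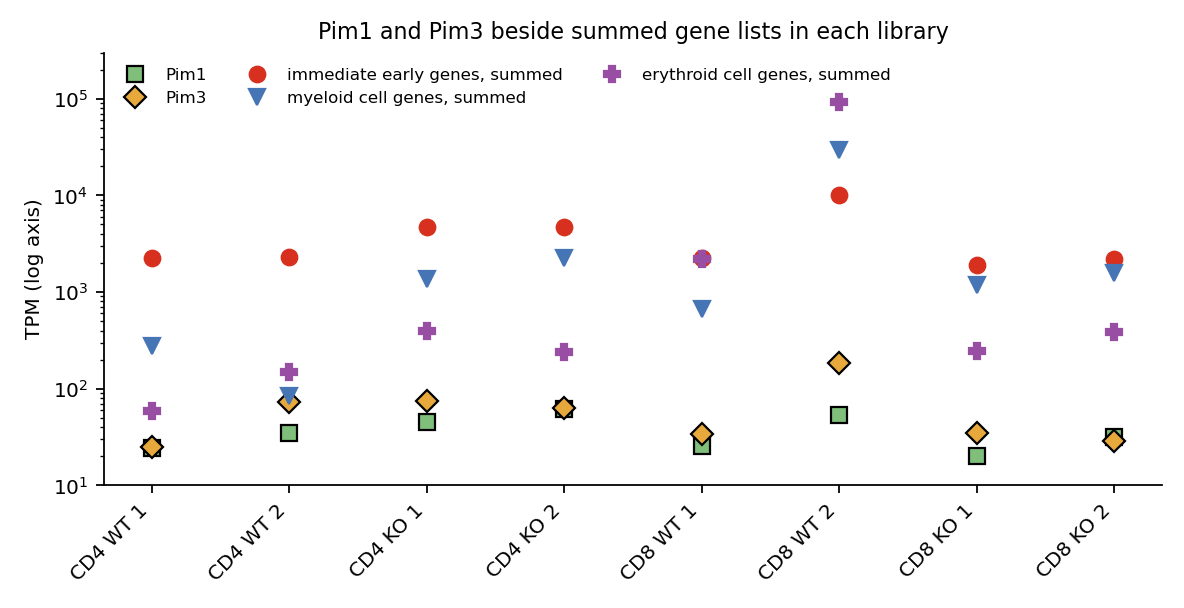
TPM (log axis) of Pim1 and Pim3 in each library, beside the summed TPM of immediate early, myeloid and erythroid genes. In the library labelled CD8 WT replicate 2 the 3 sums (10150, 29780 and 91700 TPM) and Pim3 (183.2 TPM) are at their highest.

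Markers of other cells were set beside the Pim values in the same way. Summed myeloid markers were 1353 and 2241 TPM in CD4 KO against 278 and 84.3 in CD4 WT, with 9 of 12 markers in both KO libraries above both WT libraries (21.7% of all genes), and Elane and Mpo were listed at 0 in CD4 WT replicate 2. In CD8 cells the myeloid sum was 1189 and 1580 TPM in KO against 665 and 29780 in WT. Apart from the library labelled CD8 WT replicate 2, all KO libraries were above all WT libraries for this sum, as for Pim2. That library had the highest myeloid sum and the lowest Pim2. Markers of activated or memory T cells summed to 1324 and 1330 TPM in CD4 KO against 906 and 875 in CD4 WT, and to 980 and 946 in CD8 KO against 656 and 888 in CD8 WT. Of these 9 markers 4 lay above WT in both KO libraries of each lineage (21.7% of all genes in CD4 and 23.0% in CD8 cells), none passed by limma, Gzmb was listed at 0 in CD4 WT replicate 1 and CD8 WT replicate 1, and Ifng was listed at 0 in 5 of the 8 libraries. Naive T cell markers summed to 9153 and 9990 TPM in CD4 KO against 11470 and 11850 in CD4 WT, and to 10510 and 9477 in CD8 KO against 13260 and 5851 in CD8 WT. In CD4 cells, B cell markers summed to 1993 and 2121 TPM in KO against 2756 and 3170 in WT, regulatory T cell markers to 662.8 and 688.7 against 795.3 and 811.5, and plasma cell markers to 425.4 and 468.1 against 567.4 and 703.4. Erythroid markers summed to 242.2 and 399.6 TPM in CD4 KO against 59.3 and 150.0 in CD4 WT, so each of these 4 sums separated the CD4 genotypes. In CD8 cells B cell markers summed to 455 to 1039 TPM, regulatory T cell markers to 224.1 to 488.0, and plasma cell markers to 297.2 to 396.4 with 3169 in the library labelled CD8 WT replicate 2. Dendritic cell markers summed to 70.4 to 127.4 TPM and NK cell markers to 19.4 to 87.5 over the 8 libraries. What these cells contribute to the Pim levels was not tested.

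The knockout contrasts also varied with the length of the gene on the chromosome. The Pim genes are short, with spans of 4415 (Pim1), 5127 (Pim2) and 3533 bases (Pim3). The 3629 tested genes that span at most 10 kb had a median KO minus WT difference of 0.17 in CD4 and 0.30 in CD8 cells, and the 1043 genes that span at least 100 kb had -1.12 and -0.85. Pim2 lay above this trend, with 121 of the 3629 short genes showing a larger difference in CD4 and 64 in CD8 cells. With the trend removed, Pim2 was 2.02 higher in CD4 KO and 1.78 higher in CD8 KO on the log2 scale. The same step gave 0.68 and -0.83 for Pim1 and 0.49 and -1.60 for Pim3.

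**Figure D5:**
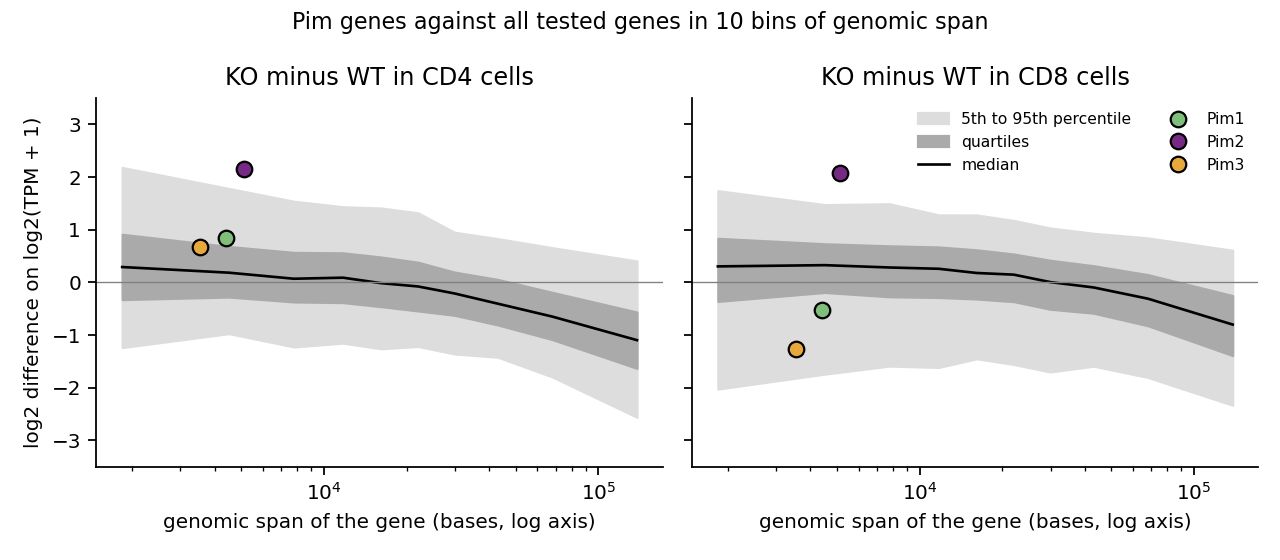
KO minus WT difference on the log2(TPM + 1) scale against genomic span in bases (log axis) in CD4 (left) and CD8 cells (right). The line is the median of all tested genes in 10 bins of span, the dark band the quartiles and the light band the 5th to 95th percentile. Pim2 lies above the light band in both panels and Pim1 and Pim3 lie within it.

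The genes closest to Pim2 over the 8 libraries were H2afj (a histone H2A variant) and Ccng1 (cyclin G1, a p53 target), each with a Pearson r of 0.991, then Atp6ap1 (an accessory subunit of the vacuolar proton pump, 0.990), Glipr1 (0.988) and Sec61a1 (the pore of the endoplasmic reticulum translocon, 0.987). Ccng1 was at 158.2 and 153.2 TPM in WT CD4 cells, 999.2 and 873.5 in KO CD4 cells, 132.1 and 61.4 in WT CD8 cells, and 532.8 and 566.2 in KO CD8 cells. Like Pim2, it had its 4 highest values in the 4 KO libraries and its lowest in the library labelled CD8 WT replicate 2. Ccng1 rose by 2.58 ± 0.36 (SE, limma adjusted p = 0.0301) in CD4 KO and by 2.60 ± 0.36 (adjusted p = 0.0248) in CD8 KO on the log2 scale. H2afj rose in CD4 KO (1.86 ± 0.32, adjusted p = 0.0423) and had 1.78 ± 0.32 in CD8 KO (adjusted p = 0.0679). Genes chosen for likeness to Pim2 share its KO difference by that choice, so these calls are no separate support.

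For Pim1 the closest genes were Smarcd3 (Pearson r 0.979), Csf2rb2 (0.942) and Cdc42ep4 (0.938), of which Smarcd3 and Csf2rb2 stayed under 8 TPM. For Pim3 they were Emr4 (0.974) and Fam129b (0.973), both listed at 0 in 3 libraries, and the clock gene Per1 (0.965). Per1 stood at 9.82 and 18.5 TPM in WT CD4 cells, 26.5 and 25.9 in KO CD4 cells, 9.15 and 53.2 in WT CD8 cells, and 12.2 and 8.78 in KO CD8 cells. As with Pim3, its highest value was in the library labelled CD8 WT replicate 2. None of these 6 genes passed in either KO contrast by limma, with adjusted p of 0.284 to 0.901 in CD4 and 0.5003 to 0.692 in CD8 cells.

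Upstream of the Pim genes, 0 of 24 tested cytokine receptors and JAK-STAT transducers passed in either lineage by limma. An unadjusted p under 0.05 was reached by 5 in CD4 and 3 in CD8 cells, where 16.7% and 15.1% of all genes did so, and the median differences were -0.01 and 0.17 beside -0.16 and 0.05 over all genes. Stat5a, a transducer of IL-2 and IL-7 signals that drives Pim transcription, was at 41.2 and 48.3 TPM in WT CD4 cells, 148.4 and 165.1 in KO CD4 cells, 23.4 and 35.3 in WT CD8 cells, and 68.5 and 47.1 in KO CD8 cells. Its KO libraries were above its WT libraries in both lineages, as Pim2 was, with 1.79 ± 0.35 (SE, adjusted p = 0.0599) in CD4 and 0.96 ± 0.35 (adjusted p = 0.255) in CD8 cells. With median-of-ratios scaling Stat5a passed in CD4 cells (adjusted p = 0.0477), and with the span trend removed it did not (adjusted p = 0.0985). Its relative Stat5b had -0.01 in CD4 cells. Stat4 had -1.92 in CD4 cells (adjusted p = 0.120), and the interferon receptor Ifnar1 had the lowest p of the list in CD8 cells (0.88, adjusted p = 0.226). Il7r, the receptor for the survival cytokine IL-7, lay lower in both CD4 KO libraries and overlapped in CD8 cells, at 3167 and 2973 TPM in WT CD4 cells, 1000 and 1173 in KO CD4 cells, 3489 and 1142 in WT CD8 cells, and 1551 and 1270 in KO CD8 cells. Its differences were -1.50 ± 0.46 (SE, adjusted p = 0.150) and -0.51 ± 0.46 (adjusted p = 0.614), and with the library labelled CD8 WT replicate 2 left out it passed in both lineages (-1.50, adjusted p = 0.00434, and -1.31, adjusted p = 0.0369). In that fit, which called 7.99% of all genes in CD4 and 0.846% in CD8 cells, 4 of the 24 passed in CD4 cells, Stat5a higher and Il7r, Jak1 and Stat4 lower, and Il7r alone in CD8 cells.

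Among other STAT target genes, of 12 tested members 0 passed in either lineage by limma, with medians of 0.25 in CD4 and -0.48 in CD8 cells. At an unadjusted p under 0.05 there were 0 and 2, against 16.7% and 15.1% of all genes. The cytokine Osm was at 45.4 and 54.3 TPM in WT CD4 cells, 34.1 and 19.9 in KO CD4 cells, 44.9 and 478.3 in WT CD8 cells, and 9.64 and 4.46 in KO CD8 cells (CD8 difference -4.28, adjusted p = 0.107). The feedback inhibitor Cish was at 5.78 and 16.3, 21.2 and 19.9, 5.47 and 38.3, and 4.50 and 1.93 TPM in the same order. Like Pim3, both had their highest value in the library labelled CD8 WT replicate 2, and so did the inhibitor Socs3 at 198.6 TPM. The cyclin Ccnd2 had -0.76 in CD4 cells (adjusted p = 0.394).

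In the NF-kB pathway 0 of 19 members passed in either lineage by limma. An unadjusted p under 0.05 was reached by 7 in CD4 and 5 in CD8 cells, against 16.7% and 15.1% of all genes. The medians were 0.03 and 0.01. Nfkbia, the inhibitor that NF-kB itself induces, was at 890 and 884 TPM in CD4 WT and 3347 and 2862 in CD4 KO (1.80 ± 0.41, SE, adjusted p = 0.0826). In CD8 cells it was at 814 and 2094 TPM in WT and 1516 and 1652 in KO, with a difference of 0.28, so unlike Pim2 it overlapped there. Birc2, an inhibitor of apoptosis, had 1.17 in CD4 KO (adjusted p = 0.114) and passed with median-of-ratios scaling (1.39, adjusted p = 0.0477). The subunit gene Nfkb1 had -1.33 in CD4 (adjusted p = 0.191) and -1.59 in CD8 cells (adjusted p = 0.187), and Birc3 had -1.15 in CD8 cells (adjusted p = 0.188). The CD4 differences of Nfkbiz (1.785), Tnfaip3 (0.96) and Nfkb2 (1.74) were the same with the library labelled CD8 WT replicate 2 left out. That library has no part in them, but the pooled spread narrowed without it, so whether these genes pass depends on keeping it. Of the 19 members 10 were higher and 9 lower in CD4 KO, where 41.7% of all genes were higher.

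Downstream, 2 of 20 tested Pim substrates were called in CD4 KO, both lower (0.526% of all genes were called lower), and 0 in CD8 KO. At an unadjusted p under 0.05 there were 5 and 9, against 16.7% and 15.1% of all genes. Snd1, a transcriptional coactivator, went from 86.3 and 106.5 TPM to 15.1 and 18.2 TPM and fell by 2.46 ± 0.37 on the log2 scale (SE, limma adjusted p = 0.0318). Map3k5, the stress kinase ASK1, went from 38.0 and 22.0 TPM to 1.25 and 3.02 TPM and fell by 3.32 ± 0.60 (adjusted p = 0.0438). In CD8 cells their differences were -1.43 (adjusted p = 0.158) and -2.92 (adjusted p = 0.107). Both genes are long, spanning 408 and 208 kb, and with the span trend removed their CD4 differences were -0.74 (adjusted p = 0.482) and -2.01 (adjusted p = 0.252). Whether they passed in CD4 cells changed with the library left out, and so did the number of calls among all genes. Those fits therefore say nothing particular to these genes.

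Among the better known substrates, named here after their values were seen, Bad was at 16.1 and 22.5 TPM in WT CD4 cells, 45.04 and 53.2 in KO CD4 cells, 21.3 and 8.97 in WT CD8 cells, and 55.3 and 54.8 in KO CD8 cells. As with Pim2, all 4 KO libraries were above all 4 WT libraries, with differences of 1.32 ± 0.45 (SE, limma adjusted p = 0.184) and 1.91 ± 0.45 (adjusted p = 0.133), which did not pass. Cdkn1b had 0.88 in CD4 (adjusted p = 0.237) and 0.90 in CD8 cells (adjusted p = 0.272). Cdkn1a had 2.36 ± 1.07 in CD4 cells (adjusted p = 0.308) and was at 141.2 TPM in the library labelled CD8 WT replicate 2 against 6.65 in the other. Leaving out either CD8 WT library left the CD4 differences of Bad and Cdkn1a as they were, since those libraries have no part in them. The pooled spread narrowed in those fits, so whether both genes pass in CD4 cells depends on keeping the CD8 WT libraries. Of the 20 tested substrates 9 were higher and 11 lower in CD4 KO, where 41.7% of all genes were higher. Without CD8 WT replicate 1, which leaves only the library that stands apart in its group, the CD8 difference of Bad was 2.49.

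In the PI3K-AKT-mTOR pathway, which acts in parallel with the Pim kinases, 0 of 25 genes passed in either lineage by limma. An unadjusted p under 0.05 was reached by 4 in CD4 and 2 in CD8 cells, against 16.7% and 15.1% of all genes. The medians were -0.40 in CD4 and -0.07 in CD8 cells. In KO 18 and 13 of the 25 were lower, as were 6836 and 5577 of all 11786 genes. The translation repressor Eif4ebp1 had -1.02 (adjusted p = 0.201) in CD4 cells. Of the genes for the complex that restrains mTOR, Tsc2 had 1.56 (adjusted p = 0.221) and Tsc1 -1.20 (adjusted p = 0.278) in CD8 cells.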

How the data were processed

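Reads of the 8 libraries were aligned with HISAT to mm10, per the submitters' processing notes. Library kit and sort are per the labels, and the sources used here do not give other upstream steps. Per the file headers, the deposited tables hold TPM, which the authors scaled to a common total. FPKM, a length-corrected fragment density, is deposited beside it, per the file headers. The deposited coverage column, per the file headers, gave the depth here. TPM keeps no read counts, so no counting interval is given and a 0 is reported as listed.

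TPM was summed per symbol and genes that averaged 1 TPM or more were kept. The values log2(TPM + 1), which understate differences of weakly expressed genes, were fitted in R 4.3.3 with data.table and the package limma (versions 1.17.8 and 3.58.1, intensity trend, 1 mean per group, 4 residual and 5.68 prior degrees of freedom). P-values are two-sided, Benjamini-Hochberg adjusted over all 11786 genes and called at 0.05. Every adjusted p in the text is from limma, and each difference is log2. The steps were tested on simulated data. Tables and sequences were handled with pandas 2.3.3, scipy 1.17.1 and Biopython 1.88 under Python 3.11.15.

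The members, lists and tests were chosen with earlier results of these data known. Named genes are the members, Trappc1, the 5 (Pim2) or 3 (Pim1, Pim3) genes of highest Pearson correlation over the 8 libraries, up to 4 called genes of each of 5 pathway lists or else the 2 of lowest p per KO contrast, and the 2 most abundant of each of 10 marker lists, of which only those beside a Pim result are given. One gene that the rule names is not reported here. Genes outside this rule, chosen after their values were seen, are Stat5b, Bad, Cdkn1b, Cdkn1a, Jak1, Nfkb2, Nfkbiz, Tnfaip3, the immediate early genes, and Elane, Mpo, Gzmb and Ifng as markers listed at 0. Of 99 pathway genes 98 were tested. Alternatives were other pseudocounts, filters, scalings, FPKM, weights, a replicate block, removal of the span trend and leaving out each library. Promoter windows are from RefSeq GRCm38.p6 and coding sequences from GENCODE M21. Identities count aligned bases of a global alignment.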

Additional observations from a re-analysis of the deposited data

How the results depend on the processing

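With 2 libraries per group, precision is limited by the spread between libraries, and TPM gives no counting error. Where a library is left out, the lone library of its group is assumed to vary like the other groups. The KO difference of Pim2 kept its sign in all settings tried, at 2.02 to 2.38 in CD4 and 1.78 to 2.09 in CD8 cells with all libraries kept. It moved beyond the spread between replicates to 2.38 in CD4 cells with median-of-ratios scaling, which shifted the median of all genes from -0.16 to 0.03 (from 0.05 to -0.04 in CD8 cells), and to 1.78 in CD8 cells with the span trend removed. Leaving out each library gave 2.07 to 2.25 for Pim2 in CD4 and 1.81 to 2.36 in CD8 cells, 0.59 to 1.08 for Pim1 in CD4 and -1.03 to -0.0012 in CD8 cells, and -0.10 to 1.44 for Pim3 in CD4 and -2.48 to -0.069 in CD8 cells. Pim3 in CD4 cells was at -0.10 without CD4 WT replicate 1. The share of Pim2 in the Pim total differed by 11.73 to 27.13 percentage points in CD4 and 21.9 to 62.88 in CD8 cells.

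For WT CD8 against CD4, the range on leaving out a library was -0.18 to 0.86 for Pim1 and -0.34 to 2.07 for Pim3, and both reversed, to -0.18 and -0.34, with the library labelled CD8 WT replicate 2 left out. When a library was left out, the interaction ranged from -0.35 to 0.20 for Pim2 (-0.40 with median-of-ratios scaling), reversing to 0.011 without CD4 WT replicate 1, 0.013 without CD4 KO replicate 2 and 0.20 without CD8 WT replicate 1. For Pim3 it ranged from -3.15 to -0.74 and passed at -3.15 (limma adjusted p = 0.0448) without CD8 WT replicate 1, which leaves only the library that stands apart in its group, against adjusted p of up to 0.973 over all settings.

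The 2 pathway genes called in CD4 cells became 4 with median-of-ratios scaling, 1 with the replicate block and 0 with the span trend removed, and 0 to 13 when a library was left out (13 without CD8 WT replicate 2). In CD8 cells the count of 0 became 0 to 19, with 19 without CD8 WT replicate 1. Over all genes, called counts in other settings and with a library left out were 0 to 1260 in CD4 (84 as reported), 0 to 1809 in CD8 (35), 0 to 1609 between WT lineages (23), 2 to 353 between KO lineages (33) and 0 to 1133 for the interaction (0). Leaving out CD8 WT replicate 2 gave 925, 98, 94, 210 and 3, and leaving out CD8 WT replicate 1 gave 728, 1809, 1609, 146 and 1133. The cause of these changes was not tested. Replicate numbers did not pair the samples (correlations of deviations between groups -0.0359 to 0.0942). The replicate block left the Pim differences as they were (Pim2 2.16 in CD4 and 2.08 in CD8 cells, each ± 0.317) and called 29 genes in CD4 and 26 in CD8 cells.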
